A study of Rattus norvegicus with 48 samples.

Results

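SB525334 blocks the kinase of ALK5, the type I receptor for TGF-beta. Its effect was measured in slices of ligated rat liver, against ligated slices that received vehicle. Libraries were chosen by their sample titles: 9 BDL_SB525334 and 10 BDL_veh libraries, 19 of the 48 in the series. Precision-cut liver slices are thin sections of living tissue kept outside the body, and BDL is bile duct ligation, an operation that stops bile flow and leads to cholestatic liver fibrosis. Both groups therefore came from ligated rat liver; beside the compound, they differed in a well-like code in the sample descriptions, described below. Ligated slices with Sora (BDL_Sora, n = 10) or Nint (BDL_Nint, n = 10), read here as the kinase inhibitors sorafenib and nintedanib, and slices from sham-operated rats with vehicle (Sham_veh, n = 9) served as further points of comparison. The labels name liver as the tissue and give no strain, age, dose, exposure time or animal number. The p-values below thus measure the spread between libraries, which may be technical. In the deposited sample sheet all 9 of these libraries carry a different compound name, so SB525334 is the name the titles give.

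TGF-beta is the best known driver of matrix production in the injured liver. The ligand brings a type II receptor together with ALK5, which phosphorylates SMAD proteins; these enter the nucleus and change transcription. In liver this pathway acts on stellate cells and portal fibroblasts, which turn into contractile, collagen-producing myofibroblasts, and it also restrains hepatocyte growth. A slice keeps these cell types side by side, so a bulk library mixes all of them, and fewer cells of a type cannot be told apart from less RNA per cell.

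The files name genes by Ensembl ID only, and 0 of 32883 IDs could be paired with a symbol. Lists of fibrosis genes, markers of liver cell types and the gene for ALK5 itself were therefore not analysed here, and the labelled tissue was not checked against its markers. Genes are described below by how they behave across the groups, by the class of RNA they belong to and by 4 single IDs. Total counts were 12570357 to 15523934 per SB525334 library and 12723015 to 20629332 per vehicle library. An upper limit of 3 counts, which a count of 0 allows, equals 0.193 to 0.239 CPM (counts scaled to library size) with SB525334 and 0.145 to 0.236 CPM with vehicle, counting error only.

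Most genes differed in level between SB525334 and vehicle libraries, mostly by small amounts. Of 14775 genes tested, 5642 (38.2%) were higher and 5143 (34.8%) were lower with SB525334 than with vehicle, by edgeR's quasi-likelihood test at a Benjamini-Hochberg adjusted p under 0.05. Of the calls, 69.9% were smaller than 2-fold, and the median call was a 1.61-fold difference. The median log2 fold change was 0.65 among genes that rose and -0.74 among genes that fell. Large changes leaned towards decreases. Increases of at least 2-fold numbered 1481 (10%) and decreases 1768 (12%). At 4-fold the numbers were 299 and 508, and at 16-fold 22 and 71. A test against a 2-fold threshold itself (glmTreat in edgeR) left 777 genes higher and 1015 lower.

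The balance of rises and falls depended on how libraries were scaled. The counts above used TMM factors, with which the median log2 fold change over all genes was 0.04. When libraries were scaled by total counts that median was -0.38, and 2767 genes were higher and 8516 lower, so 24.5% of calls were increases, against 52.3% with TMM. Directions of small changes are therefore relative to the scaling. RLE factors gave 47.5% increases.

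**Figure D1:**
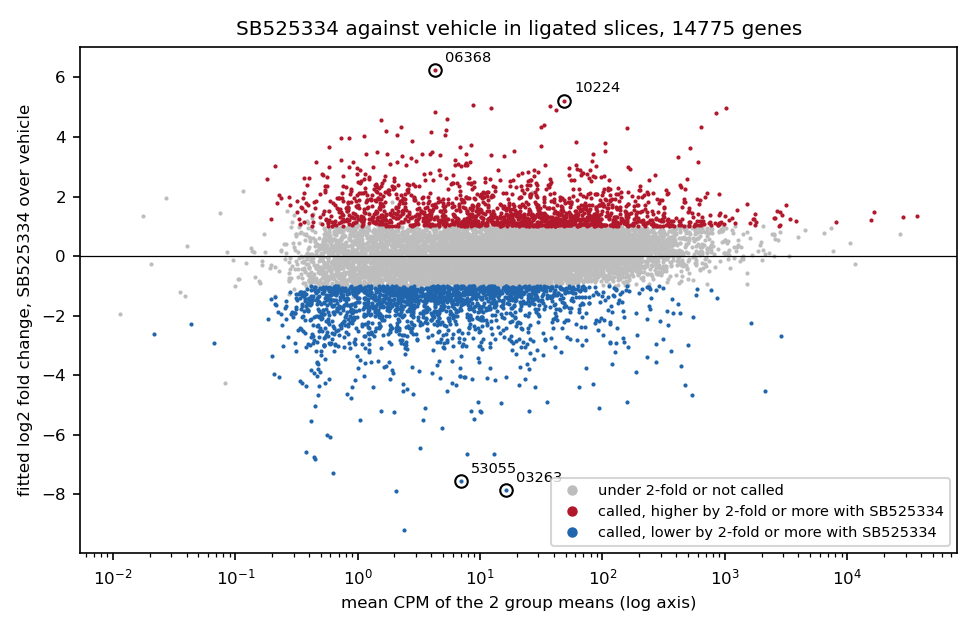
Fitted log2 fold change of SB525334 over vehicle (vertical axis) against the mean of the 2 group means in CPM (horizontal log axis), 1 point per gene for 14775 genes. Red points are the 1481 genes called higher by 2-fold or more, blue points the 1768 called lower by 2-fold or more, and grey points the rest. Circles mark the 4 IDs described in the text, labelled by their last digits.

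Complete separation of the libraries was common. In 2728 genes (18.5%) every SB525334 library lay above every vehicle library, and in 2369 genes (16%) every one lay below. Against all 30 other ligated libraries, with vehicle, Sora or Nint, the SB525334 libraries lay above in 1957 genes (13.2%) and below in 1484 (10%). Against all 39 other libraries, sham included, they lay above in 616 genes (4.17%) and below in 473 (3.2%). In these genes the SB525334 level was outside the range of both ligated and sham slices.

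The changed genes held a large part of the RNA. Genes that rose by 2-fold or more made up 30.8 ± 3.28% of counts in SB525334 libraries (SD, n = 9) and 15.9 ± 0.58% in vehicle libraries (n = 10). Their share was 19.1% with Sora, 18.3% with Nint and 22.1% in sham slices, all below the lowest SB525334 library at 26.7%. Genes that fell by 2-fold or more made up 1.5 ± 0.23% of counts with SB525334 and 7.38 ± 0.34% with vehicle. In sham slices the same genes made up 1.48 ± 0.13%, a share close to that of the SB525334 libraries, while Sora and Nint libraries held 4.54% and 4.92%. These shares describe genes chosen on the same difference and carry no test. Among the 50 genes most abundant in vehicle libraries, 29 rose and 7 fell, with a median log2 fold change of 0.62, or 0.23 with total counts.

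Call rates differed somewhat between coding and other genes. The authors' table of expressed coding genes held 13820 of the 14775 tested genes, and of these 5321 (38.5%) rose and 4890 (35.4%) fell. Of the 955 tested genes outside it, 321 (33.6%) rose and 253 (26.5%) fell. By 2-fold or more, 13.9% of the genes outside the table rose and 14.2% fell, against 9.75% and 11.8% of the coding genes.

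Some genes lay on opposite sides of 1 CPM in the 2 groups, a level above the 3-count limit. With SB525334, 93 genes (0.629% of those tested) lay under 1 CPM in every library while every vehicle library held 1 CPM or more; 89 of them were in the coding table. Of the 93, 66 were also under 1 CPM in every sham library, and 52 and 56 stayed at 1 CPM or more in every Sora and every Nint library. The opposite pattern, 1 CPM or more in every SB525334 library and less in every vehicle library, was seen in 23 genes (0.156%), 18 of them coding. Of the 23, 15 were under 1 CPM in every sham library too, and 9 and 12 were under 1 CPM in every Sora and every Nint library. With total counts the numbers were 139 and 13. For the sham, Sora and Nint counts in these genes, the share over all tested genes is not given here, so they are descriptive only.

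Next, 4 single IDs, each in the coding table, show what the largest changes looked like library by library. They are the 2 largest rises and the 2 largest falls among called genes that met a rule. The higher group had to average 5 CPM or more and the libraries not to overlap, which 2642 higher and 1941 lower genes met. For the 4 IDs, the folds, p-values and lack of overlap against vehicle were therefore largely fixed by this choice. The same SB525334 values enter the contrasts with Sora, Nint and sham, so those folds and p-values are not independent of the choice. ENSRNOG00000006368 had 2.1, 6.64, 7.72, 13.9, 14.1, 3.58, 15.7, 2.73 and 9.6 CPM in SB525334 libraries 1 to 9, against 0 to 0.271 CPM in vehicle libraries (median 0.0627). The vehicle values were at or near the detection limit, with 17 counts in 10 libraries. SB525334 libraries 1, 6 and 8 were the lowest of their group, at 2.1 to 3.58 CPM, and the others held 6.64 CPM or more. The log2 fold change was 6.25 (SE 0.45, adjusted p = 5.31e-17, edgeR). The other compounds left it near the limit, at 0.305 ± 0.23 CPM with Sora and 0.223 ± 0.08 CPM with Nint (SD, n = 10 each), while sham slices held 0.104 ± 0.12 CPM (n = 9). SB525334 exceeded Sora by a log2 fold change of 4.83 (adjusted p = 5.16e-15, edgeR) and Nint by 5.18 (adjusted p = 1.66e-15, edgeR).

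ENSRNOG00000010224 reached 51.5 to 154.4 CPM with SB525334 (median 96.1, n = 9), against 1.68 to 6.45 CPM with vehicle (median 2.23, n = 10). The log2 fold change was 5.22 (SE 0.29, adjusted p = 1.14e-20, edgeR). One vehicle library, number 3, stood at 6.45 CPM and the other vehicle libraries at 2.5 CPM or less. Here libraries 1, 6 and 8 were not low: they held 90.4 to 154.4 CPM, and the other SB525334 libraries 51.5 to 103.1 CPM. Levels were 8.88 ± 4.7 CPM with Sora and 10.8 ± 4.25 CPM with Nint, and SB525334 exceeded both, by log2 fold changes of 3.43 (adjusted p = 4.53e-16, edgeR) and 3.14 (adjusted p = 4.66e-15, edgeR). Sham slices held 46.3 ± 16.4 CPM (n = 9), so this gene was high in unligated liver, low in ligated vehicle slices and high again with SB525334. SB525334 libraries were above sham libraries by a log2 fold change of 1.04 (SE 0.24, adjusted p = 0.000125, edgeR), and the ranges overlapped. A difference above 2-fold from sham was not called (adjusted p = 0.524, glmTreat in edgeR).

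ENSRNOG00000003263 fell to 0 to 0.378 CPM with SB525334, 14 counts in 9 libraries with 3 libraries at 0, against 20.2 to 46.9 CPM with vehicle (median 31, n = 10). The log2 fold change was -7.86 (SE 0.48, adjusted p = 3e-19, edgeR). Sora and Nint libraries held intermediate levels, 4.09 ± 2.78 CPM and 7.46 ± 3.55 CPM, and SB525334 lay below both by log2 fold changes of -4.87 (adjusted p = 2.19e-11, edgeR) and -5.74 (adjusted p = 5.21e-14, edgeR). Sham slices held 0.163 ± 0.13 CPM, and SB525334 and sham libraries did not differ past the threshold (log2 fold change -0.33, 95% interval -2.04 to 1.39, adjusted p = 0.737, edgeR).

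ENSRNOG00000053055 gave the same picture at a lower level. It had 7 counts in 9 SB525334 libraries, 4 of them at 0 and the highest at 0.189 CPM, against 8.61 to 18.4 CPM with vehicle (median 13.8, n = 10). The log2 fold change was -7.55 (SE 0.33, adjusted p = 9.04e-25, edgeR). With Sora it held 1.86 ± 0.5 CPM and with Nint 4.18 ± 1.74 CPM, and SB525334 was lower than both, by -4.66 (adjusted p = 1.63e-15, edgeR) and -5.83 (adjusted p = 8.52e-20, edgeR) on the log2 scale. Sham slices gave 1 count in 9 libraries. SB525334 and sham libraries were all under the 3-count limit, so no fold is given between them.

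**Figure D2:**
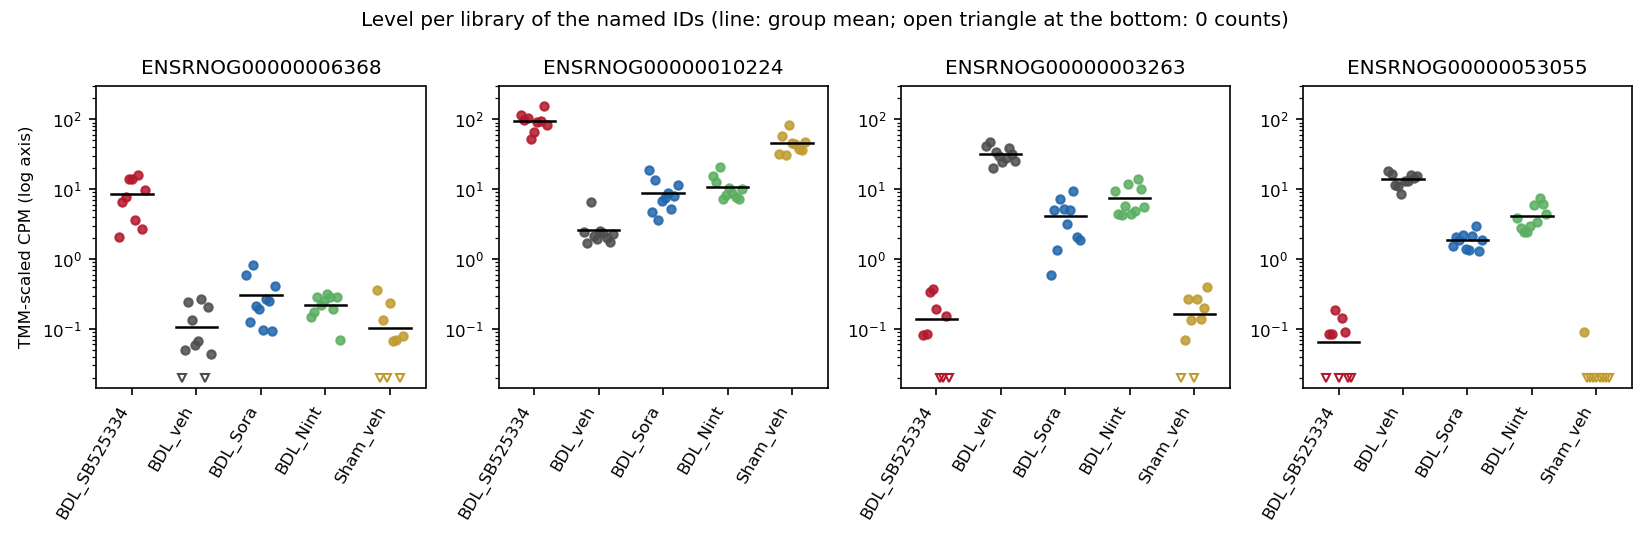
TMM-scaled CPM (log axis) of the 4 IDs in every library of the 5 groups, with 1 point per library, a line at each group mean and open triangles at the bottom for libraries with 0 counts. By the rule that chose these IDs, the SB525334 libraries sit above all vehicle libraries for the 2 on the left and below all of them for the 2 on the right. On the right they lie near the detection limit, as the sham libraries do.

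Genes were then grouped by how ligated slices differed from sham slices, to ask how SB525334 moved genes that ligation had moved. The groups were defined from the differences of Sora and Nint from sham, so no SB525334 or vehicle level entered the fold itself. The gene filter, the scaling and the estimate of spread came from the fit over all 48 libraries, SB525334 and vehicle included. Sora and Nint slices were themselves treated, which limits them as a picture of ligation. Vehicle levels lay near those of Sora and Nint, as given below. Falls among high genes and rises among low genes with SB525334 are therefore partly set by how the genes were chosen. The shifts below are descriptive and do not test a move towards sham. In both compound groups 3625 genes were higher than sham by 2-fold or more and 1355 were lower.

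Genes that were high in ligated slices fell more often than they rose with SB525334. Of the 3625, 1735 (47.9%) fell and 887 (24.5%) rose, with a median log2 fold change of -0.33, against 34.8% and 38.2% and a median of 0.04 over all genes tested. The shift was larger in sets with a larger ligation difference, which also had lower levels. Vehicle medians in the sets that follow were 12, 6.93 and 6.53 CPM, in order. By mean level, the high genes had a median log2 fold change of -0.44 at 1 to 10 CPM. It was -0.21 at 10 to 100 CPM and -0.13 at 100 to 1000 CPM. Whether level or ligation difference goes with the shift was not tested. Genes 2 to 4-fold above sham had a median of -0.17, genes 4 to 16-fold above sham a median of -0.26, and the 925 genes 16-fold or more above sham a median of -0.80. In that last set 57.9% fell and 18.1% rose, and the median level was 3.42 CPM with SB525334, 6.53 CPM with vehicle and 0.17 CPM in sham slices. These genes remained far above sham: the median log2 difference from sham was 3.2 for SB525334 and 4.19 for vehicle.

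Genes that were low in ligated slices showed the mirror pattern with TMM factors. Of the 1355, 736 (54.3%) rose and 237 (17.5%) fell, with a median log2 fold change of 0.39. The median level was 21.5 CPM with SB525334, 16.2 CPM with vehicle and 49.3 CPM in sham slices. The 214 genes 4 to 16-fold below sham had a median of 0.64, and the 39 genes 16-fold or more below sham a median of 0.13 with 11 rises and 5 falls. Genes called in neither compound group against sham, 2230 in all, had 33.5% rising, 33.9% falling and a median of 0.01 with TMM factors. Those at a mean of 1 to 10 CPM fell more often (25.1% rose, 37.5% fell) and those at 100 to 1000 CPM rose more often (52.9% rose, 24.2% fell).

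With total counts, and the groups defined anew under that scaling, the high group still fell (62.6% fell, 14.1% rose, n = 4262), while the low group lost its direction (32.7% rose, 34.3% fell, n = 722). Genes called in neither compound group then mostly fell (17% rose, 55% fell, median -0.36, n = 2422). Relative to the median of all genes, the medians were -0.37 for the high group and 0.35 for the low group with TMM factors, and -0.34 and 0.41 with total counts.

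The treated level reached the sham range in a minority of these genes. A group median inside the range of the 9 sham libraries was found for SB525334 in 530 (14.6%) and for vehicle in 198 (5.46%) of the 3625 genes high in ligated slices. Among the 1355 low genes the numbers were 232 (17.1%) for SB525334 and 68 (5.02%) for vehicle. The order was the opposite in the 2230 genes called in neither compound group against sham, where 50.2% of SB525334 medians and 84% of vehicle medians lay inside the sham range. With total counts the share was 15.9% for SB525334 and 2.9% for vehicle among the high genes, 15.3% for SB525334 and 9.89% for vehicle among the low genes, and 51.2% for SB525334 and 56.5% for vehicle among the rest. The range of 9 libraries is wide, since sham slices varied about as much among themselves as SB525334 slices did. Vehicle levels lay near those of Sora and Nint, which defined the sets. In the high genes the median level was 8.13 CPM with vehicle, 7.82 CPM with Sora and 8.23 CPM with Nint. The vehicle shares inside the sham range are therefore partly set by how the genes were chosen, and the contrast with SB525334 does not measure a move towards sham.

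**Figure D3:**
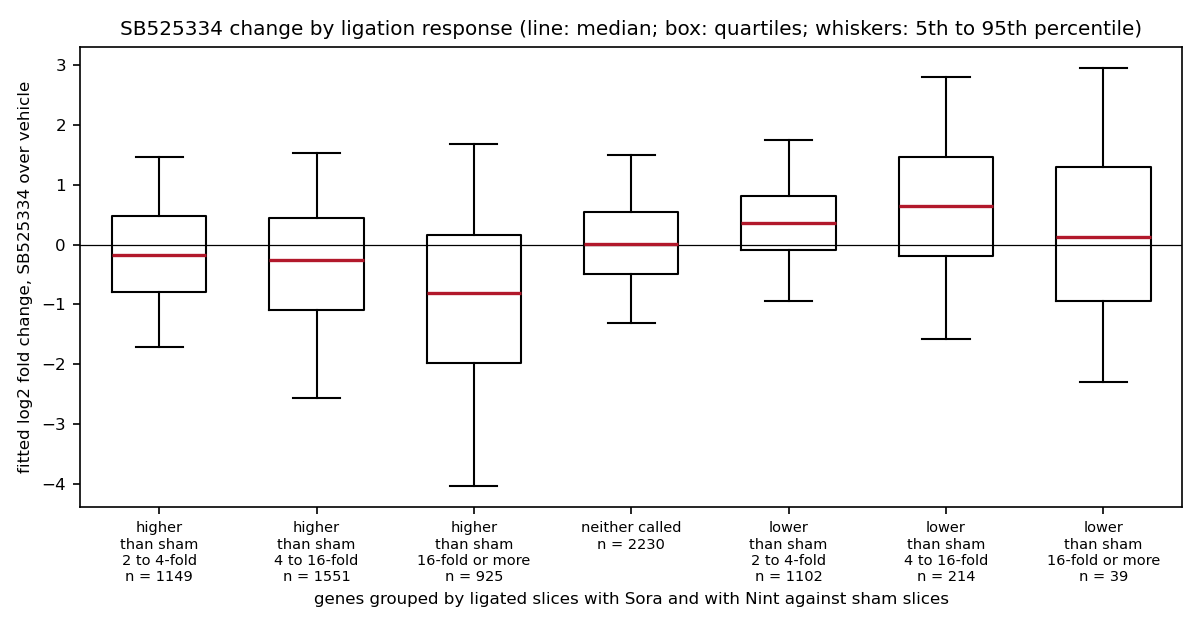
Fitted log2 fold change of SB525334 over vehicle (vertical axis) for genes grouped by ligated slices with Sora and Nint against sham slices. Red lines are medians, boxes quartiles and whiskers the 5th to 95th percentile; the medians run from -0.80 for genes 16-fold or more above sham to 0.64 for genes 4 to 16-fold below sham, and each group holds changes in both directions.

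SB525334 libraries were also set against each of the other groups. Against Sora 10691 genes (72.4%) were called and against Nint 10746 (72.7%), by edgeR's quasi-likelihood test. Against sham slices 12004 genes (81.2%) were called. The median absolute log2 fold change was 0.497 against Sora, 0.494 against Nint and 0.747 against sham, beside 0.51 against vehicle. All of these share the SB525334 libraries.

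The classes of RNA in the authors' quality table changed as well. The table gives the share of mapped alignments in each of 22 annotation classes. These classes do not add up to all mapped alignments, so a share can rise as another class or alignments outside the classes fall. The intronic share, given below, was lower with SB525334. Of the classes, 14 had a higher and 4 a lower share with SB525334 than with vehicle (exact permutation test of the means over 92378 arrangements, two-sided, Benjamini-Hochberg adjusted over 144 tests). In 8 classes no library overlapped. The protein_coding share was 43.8 ± 2.69% with SB525334 and 42.7 ± 1.07% with vehicle, a difference that did not pass (adjusted p = 0.327, exact permutation test).

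Mitochondrial RNA made up more of the SB525334 libraries. The share of Mt_rRNA, the ribosomal RNA of mitochondria, was 0.961, 0.976, 1.36, 2.06, 1.26, 0.791, 1.27, 0.945 and 1.21% in SB525334 libraries 1 to 9, against 0.49 to 0.553% in vehicle libraries. Every SB525334 library was higher, by 2.3-fold in the mean (adjusted p = 3.8e-05, the smallest that the exact permutation test can give here). Sora and Nint libraries held 0.613% and 0.545%, and sham libraries 1 ± 0.08%, which SB525334 did not exceed past the threshold (adjusted p = 0.126, exact permutation test). Mt_tRNA, the transfer RNA of mitochondria, rose to 0.0241 ± 0.0024% with SB525334, against 0.014 ± 0.00075% with vehicle, again with no overlap. Sham libraries held 0.0212 ± 0.003%, below SB525334 but with overlap (adjusted p = 0.0495, exact permutation test). The class named Mitochondrial was 2.86 ± 0.68% with SB525334, 1.42 ± 0.063% with vehicle and 2.25 ± 0.14% in sham slices. There too SB525334 was above sham, with overlap (adjusted p = 0.00227, exact permutation test).

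The shares of small nuclear and nucleolar RNAs were also higher with SB525334, though each of the 3 classes overlapped the vehicle range. The snoRNA share, RNAs that guide the modification of ribosomal RNA, was 0.144 ± 0.021% with SB525334 and 0.106 ± 0.0079% with vehicle (adjusted p = 0.000104, exact permutation test). The share of scaRNA, which guides modification of spliceosomal RNA, was 0.0653 ± 0.014% with SB525334 and 0.0452 ± 0.002% with vehicle (adjusted p = 0.000151, exact permutation test). The share of snRNA, the spliceosomal RNAs themselves, was 0.0291 ± 0.0073% with SB525334 and 0.019 ± 0.0012% with vehicle (adjusted p = 0.00017, exact permutation test). Sham slices had the lowest mean of all groups in these 3 classes, 0.0786% for snoRNA, 0.0255% for scaRNA and 0.0117% for snRNA. The SB525334 mean was thus farther from sham than the vehicle mean here, and nearer to sham for Mt_rRNA.

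Long noncoding and antisense classes did not move together. The lincRNA share, long intergenic noncoding RNA, was 0.807 ± 0.096% with SB525334, 0.62 ± 0.048% with vehicle and 1.12 ± 0.1% in sham slices (SB525334 against vehicle, adjusted p = 9.74e-05, exact permutation test). The processed_transcript share fell to 0.144 ± 0.013% with SB525334, against 0.183 ± 0.0092% with vehicle, with no overlap. The antisense share fell to 0.00318 ± 0.00021%, against 0.00374 ± 9.9e-05% with vehicle, and was the 1 class in which the SB525334 libraries overlapped none of the 39 others. Sham libraries had the highest antisense share, 0.00661 ± 0.00086%.

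The miRNA class, which here covers reads in miRNA genes and not mature miRNA libraries, was uneven. It was 0.0202, 0.0301, 0.0503, 0.101, 0.0485, 0.0154, 0.0548, 0.0188 and 0.0434% in SB525334 libraries 1 to 9, against 0.015 to 0.0209% in vehicle libraries. Libraries 1, 6 and 8 overlapped the vehicle range and the other SB525334 libraries did not (adjusted p = 0.00144, exact permutation test). Without libraries 1, 6 and 8, the lowest of the group, the ratio of means to vehicle was 3.14, against 2.44 with them. A higher ratio follows from leaving out the lowest values. Without library 4, the highest, it was 2.02.

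**Figure D4:**
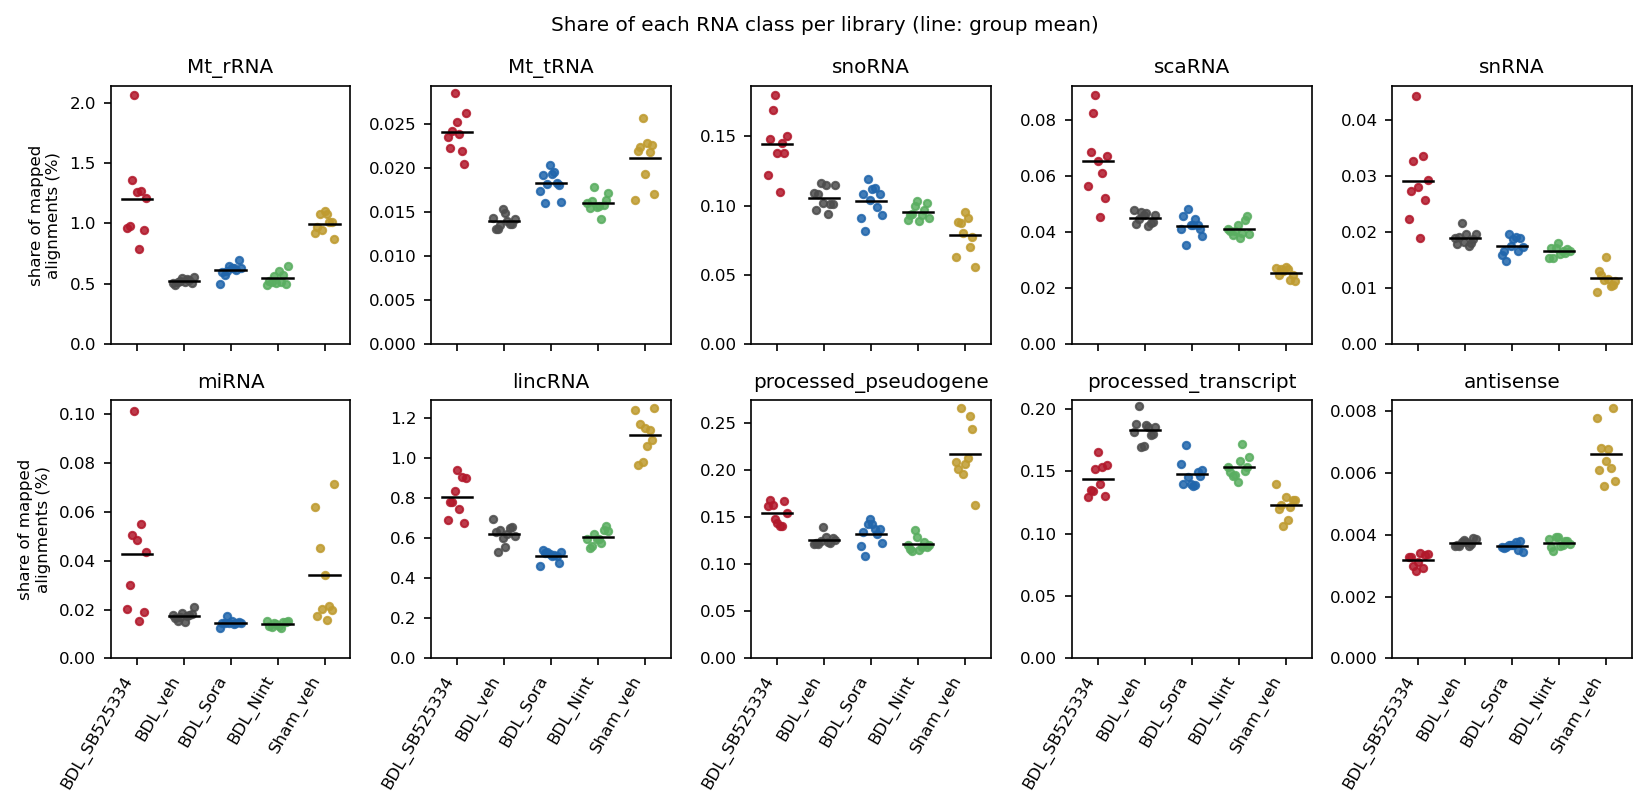
Share of mapped alignments (percent, axes starting at 0) in 10 of the 22 annotation classes, with 1 point per library and a line at each group mean. SB525334 libraries lie above all vehicle libraries for Mt_rRNA, Mt_tRNA and processed_pseudogene and below all of them for processed_transcript and antisense.

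Fewer genes reached 1 RPKM, a level scaled to the reads of each library, with SB525334. Scaling by total counts put the median log2 fold change over all genes at -0.38. How much of the lower number of genes comes from scaling was not tested. Genes at 1 RPKM or more, as the authors counted them, numbered 13093 ± 428 with SB525334 and 14209 ± 118 with vehicle, with no overlap (adjusted p = 3.8e-05, exact permutation test), and 12793 ± 122 in sham slices. Exonic alignments took 43.9 ± 1.65% with SB525334 and 39.6 ± 0.94% with vehicle, and intronic ones 30 ± 2.07% with SB525334 and 35.6 ± 0.9% with vehicle, with no overlap in either. Measures of read quality moved with the group too. Non-uniquely mapped alignments were 14.4 ± 3.45% with SB525334, 8.54 ± 0.24% with vehicle and 11.3 ± 0.92% in sham slices. The first component of all quality metrics was -8.06 ± 4.4 with SB525334, 6.5 ± 3.2 with vehicle and -8.78 ± 1.98 in sham slices, so it separated SB525334 from vehicle. With that component as a covariate 4034 genes were higher and 3403 lower in edgeR, and 1219 and 1496 by 2-fold or more; whether it reflects RNA quality or the response itself cannot be told apart.

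The sample descriptions end in a well-like code, whose meaning the labels do not give and whose columns were unevenly shared. Of the SB525334 libraries, 5 of 9 had columns 1 or 2, which held no vehicle library, and column 5 held 3 vehicle libraries and no SB525334 library. Columns 3, 4 and 6 held 4 SB525334 and 7 vehicle libraries, and within these columns 4874 genes were higher and 4226 lower (edgeR, all groups in the fit). The 4 IDs had log2 fold changes there of 6.4 for ENSRNOG00000006368, 5.62 for ENSRNOG00000010224, -8.35 for ENSRNOG00000003263 and -7.67 for ENSRNOG00000053055. These libraries are among those on which the IDs were chosen, so large changes there were largely fixed by the choice.

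The size of the difference from vehicle varied between SB525334 libraries. For each library, its difference from the mean of the vehicle libraries was set against the difference of the group means over the 3167 to 3440 genes called at 2-fold or more without that library. A slope of 1 means that the library changed as much as the rest of its group. Slopes were 0.85, 1.04, 1.09, 0.968, 1.03, 0.825, 1.06, 0.76 and 1.08 for SB525334 libraries 1 to 9, against -0.0278 to 0.0876 for the vehicle libraries. Libraries 1, 6 and 8 were the lowest of the SB525334 group, and the 2 groups did not overlap. In SB525334 libraries 93 to 99.3% of those genes differed from vehicle in the direction of their group. Vehicle library 3, the highest of its group at 0.0876, is also the one that stood apart for ENSRNOG00000010224. The slopes were not spread evenly over the columns of the well-like code. Libraries 6 and 8, with the lowest slopes, were the SB525334 libraries of column 6. Libraries 3, 7 and 9, with the highest slopes, were those of column 1. Whether the column is related to the slope was not tested.

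**Figure D5:**
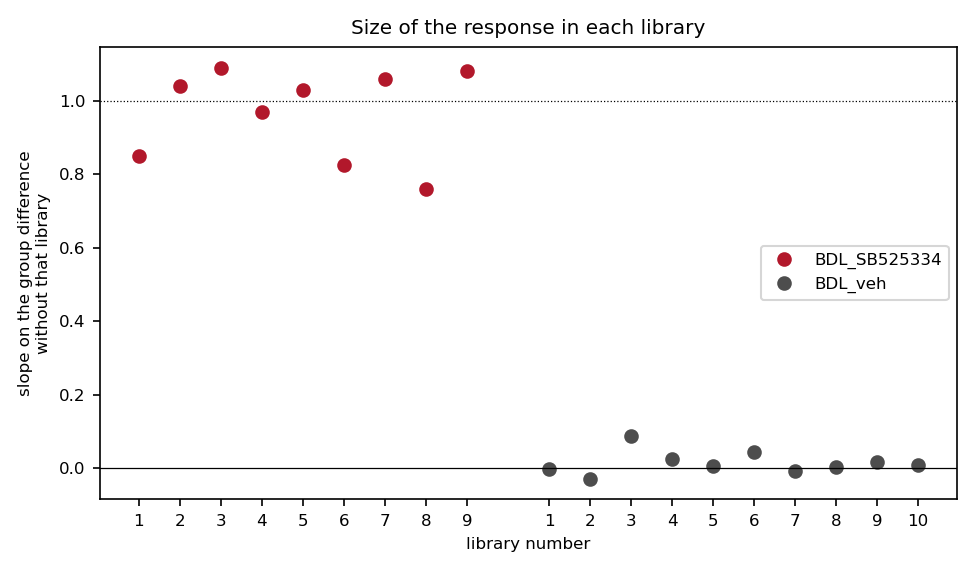
Slope of each library's log2 CPM difference from vehicle on the difference of the group means without that library (vertical axis), for SB525334 libraries 1 to 9 (red) and vehicle libraries 1 to 10 (grey). Points near the dotted line at 1 changed as much as the rest of the SB525334 group and points near 0 did not; SB525334 libraries 1, 6 and 8 lie at 0.85 or less and the rest of the group at 0.968 or more.

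The SB525334 libraries also varied more among themselves. Over 9512 genes with a mean of 10 CPM or more, the median SD of log2 CPM was 0.217 with SB525334 and 0.104 with vehicle, and the SD was larger with SB525334 in 8443 genes (88.8%). It was 0.127 with Sora, 0.115 with Nint and 0.231 in sham slices. SB525334 libraries 1, 6 and 8 had the lowest slopes and were singled out after seeing the data. Without them, there were 1676 increases and 2291 decreases of at least 2-fold.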

How the data were processed

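RNA-seq of 48 libraries in 5 groups was analysed. The submitters' processing notes name RSEM and edgeR, without versions, and build Rnor_6.0. The sources used here name neither an aligner nor an annotation release nor the strand setting of the counting. The deposited table holds expected counts for 32883 genes (8.02% not whole at a tolerance of 1e-06), rounded here. The authors also deposited log2 CPM values for 14418 coding genes and a table of 172 quality metrics, which mixes percent values, counts and other scores. Overlapping, antisense and near-identical genes are uncertain. Read 1 lay antisense in 98.5 to 98.9% of pairs in genes, per the authors' metrics.

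Genes were kept with edgeR's filterByExpr (14775), scaled with TMM and tested with the quasi-likelihood test of edgeR 4.0.16 (R 4.3.3) in 1 fit over 48 libraries without covariates; p-values were adjusted over all genes and tests were two-sided. CPM values are TMM-scaled, log2 CPM used a prior count of 2, and switched genes used 1 CPM. SEs were derived from the F statistic. The test was tested on simulated data. Quality measures were compared with exact permutation tests (SciPy 1.17.1). Alternatives included DESeq2 1.42.0 and limma 3.58.1. No 2 SB525334 or vehicle libraries matched within sampling noise (81 pairs within groups, lowest chi-square per degree of freedom 3.94). Single IDs were named by the size rule in the text. The reference table (GRCr8, 47357 genes) pairs 0 of the IDs with a symbol, so gene lists were not used. Groups, genes and lists were chosen with earlier results of these data known; the ligation groups, RNA classes, sham ranges and library slopes were added after seeing the data.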

Additional observations from a re-analysis of the deposited data

Results flagged for a closer look

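Samples far from the rest of their group were sought in 91 groups of values and found in 14; chance alone flags about 1 in 20 groups. Library 4 stood apart within SB525334 in 4 of them, with a miRNA share of 0.101% (next 0.0548%), a Mitochondrial share of 4.49% (next 3.19%), an Mt_rRNA share of 2.06% (next 1.36%) and an unprocessed_pseudogene share of 0.00796% (next 0.00879%). Without library 4, Mt_rRNA averaged 1.1% with SB525334, 2.09 times the vehicle mean, and 0 of the 22 class calls changed. SB525334 library 6 had the highest DeepInterGene share, 8.64% (next 7.65%).

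Vehicle library 5 was high in processed_pseudogene, at 0.139%, in pseudogene, at 0.395%, in transcribed_processed_pseudogene, at 0.00717%, and in genes with 10 RPKM or more, at 4906. Vehicle library 4 had an snRNA share of 0.0216% and vehicle library 10 a TEC share of 0.00151%. ENSRNOG00000010224 stood at 6.45 CPM in vehicle library 3, against 2.5 CPM in the next; without that library its log2 fold change with SB525334 was 5.48. ENSRNOG00000053055 stood at 2.95 CPM in Sora library 8 (next 2.18 CPM), and its value of 0.0897 CPM in sham library 1 was a single count, with 0 in the other sham libraries.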

How the results depend on the processing

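Against the 5642 higher and 5143 lower genes (1481 and 1768 by 2-fold or more), 4 settings moved a count by over 1.5 times. Total counts gave 2767 and 8516 (684 and 3228), the 2-fold threshold test 777 and 1015, the 5 CPM filter 951 and 1163 by 2-fold or more, over fewer genes, and the quality component 3403 lower. Of the genes high in ligated slices, 441 rose and 1409 fell with the quality component, and of the low ones 643 rose and 98 fell. For total counts and the quality component the cause was not tested. The threshold test left 1536 genes against Sora, 1573 against Nint and 4530 against sham. No count moved by 1.5 times with RLE factors, DESeq2, no filter, 2 groups alone, well column, limma-voom, limma on the authors' log2 CPM or libraries left out. Leaving out each library in turn gave 5533 to 5707 higher and 5022 to 5231 lower, 1457 to 1566 and 1712 to 1929 by 2-fold or more. Within well columns 3, 4 and 6, chosen after seeing the data, they were 1360 and 1546. With the replicate block the numbers were 5580 and 5121, 1492 and 1786 by 2-fold or more. Same-numbered SB525334 and vehicle libraries showed little shared deviation (r -0.101 to 0.179, over 0.1 in 2 of 9 pairs, 1 library best with its own number). So few pairs cannot exclude weak pairing, and the labels give no animal number. Whether the numbers pair libraries is therefore not known. Over its alternatives ENSRNOG00000006368 ranged from 4.52 to 6.68 in log2 fold change and ENSRNOG00000010224 from 4.82 to 5.62. ENSRNOG00000003263 ranged from -8.56 to -7.56 and ENSRNOG00000053055 from -8.05 to -7.14. These IDs were chosen for the size of their change in the same libraries. Without SB525334 libraries 1, 6 and 8, 2 of 22 RNA class calls changed: transcribed_unprocessed_pseudogene lost its call (adjusted p = 0.382, exact permutation test) and sense_intronic gained one (0.0411, exact permutation test). Depth limits the IDs with under 20 counts in a group.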
